A study of Homo sapiens with 7 samples.

Results

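The H19 and IGF2 domain was defined as the span of the genes H19, IGF2 and INS on the short arm of chromosome 11, extended by 50 kb on both sides. In hg19 it ran from chr11:1966396-2232451, that is 266 kb, and a CTCF peak belonged to it when it overlapped this interval. It held 15 of the 33094 CTCF peaks of control cells and 20 of the 32917 peaks of PDS-treated cells, 35 of 66011 peaks in all. The peaks came from chromatin immunoprecipitation followed by sequencing (ChIP-seq) in K562, an established human leukaemia cell line, and the 7 samples comprised 3 of untreated control cells (CTCF in 2, IgG in 1) and 4 of cells exposed to pyridostatin (PDS) at 10 μM over 24 h (CTCF in 2, IgG in 2). PDS is a small molecule that stabilizes G-quadruplexes (G4s), four-stranded structures of G-rich DNA, and the question behind the comparison was where CTCF lies relative to G4s when these are favoured. The authors called peaks once per condition on both replicates, so that each condition has 1 list with no value per replicate, no SD and no known depth. A peak's fold enrichment was computed against IgG of the same treatment. Folds were therefore read as percentiles within a list, the share of its peaks with a lower fold, and not as levels to be compared between the lists. The lists hold no expression values, and the identity of the cells was not checked here.

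H19 encodes a long non-coding RNA and IGF2 a growth factor of fetal tissues. Both are imprinted: H19 is transcribed from the maternal chromosome and IGF2 from the paternal one. Between them, close to the H19 start, lies the imprinting control region, an array of CTCF sites that is methylated on the paternal chromosome. On the unmethylated maternal chromosome CTCF binds there and insulates IGF2 from enhancers on the far side of H19, which makes this locus a textbook case of an insulator that depends on CTCF. INS, the gene of insulin, lies next to IGF2, followed by TH, which encodes tyrosine hydroxylase, the rate-limiting enzyme of catecholamine synthesis. MRPL23, which encodes a protein of the mitochondrial ribosome, lies on the other side of H19. ChIP-seq reads of these files do not tell the parental chromosomes apart.

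Copies of the CTCF core motif marked the region upstream of H19. The motif searched has 14 bp, read as CCGCG, any base, GG, any base, GGCAG, with at most 1 mismatch at its 12 fixed positions and on either strand. In the 7 kb upstream of the H19 start it occurred 7 times, 5 of them without a mismatch, always on the minus strand, which is the strand of H19. All 7 copies are shown 5′ to 3′ in the direction of H19 transcription, with the core in capitals and 10 bases on either side, because the peaks described next are read against them. The 5 exact copies were identical at 31 to 33 of the 34 bases shown in any pair.
Copy A, 1209 bp upstream, chr11:2020265-2020298: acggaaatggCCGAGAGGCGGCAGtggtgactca
Copy B, 2132 bp upstream, chr11:2021188-2021221: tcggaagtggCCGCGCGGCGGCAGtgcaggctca
Copy C, 2538 bp upstream, chr11:2021594-2021627: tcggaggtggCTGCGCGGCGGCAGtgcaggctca
Copy D, 2944 bp upstream, chr11:2022000-2022033: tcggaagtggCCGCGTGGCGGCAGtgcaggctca
Copy E, 4377 bp upstream, chr11:2023433-2023466: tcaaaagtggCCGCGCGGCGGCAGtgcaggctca
Copy F, 4778 bp upstream, chr11:2023834-2023867: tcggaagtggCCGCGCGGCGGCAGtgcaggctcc
Copy G, 5183 bp upstream, chr11:2024239-2024272: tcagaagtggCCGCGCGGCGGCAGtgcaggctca
Copies B, C and D followed each other at 406 bp, copies E and F at 401 bp, and copies F and G at 405 bp. With 2 mismatches, 3 further copies were found in the 7 kb. Those 773 and 4201 bp upstream of the H19 start lay whole inside a peak of both lists. The third, which lay outside all peaks, is shown because it was 406 bp beyond D, 3350 bp upstream of the start:
Weak copy, chr11:2022406-2022439: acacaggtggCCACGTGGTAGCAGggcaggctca
The core of copies B, E, F and G held 4 CpG dinucleotides, that of C and D held 3, that of A held 2 and that of the weak copy held 1.

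The exact core is rare. It occurred 263 times on the chromosomes of the reference, of which 26 (9.89%, Wilson 95% confidence interval 6.84 to 14.1%) lay inside a control peak and 23 (8.75%, interval 5.90 to 12.8%) inside a PDS peak. Chromosome 11 held 21 exact copies, 5 of them in the domain. All 5 lay whole inside a control peak, and 3 lay whole inside a PDS peak, the other 2 being crossed by the edge of one. Thus 5 of the 26 exact copies under a control peak anywhere in the genome were copies B, D, E, F and G upstream of H19.

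Of the 7 copies, 6 were met by a peak in each list. In control cells, 4 peaks lay in the 7 kb upstream of H19 and held copies A, B, D, E, F and G whole. In PDS-treated cells, 7 peaks lay there, which held A, D, E and G whole and the last 3 and 7 bases of the cores of B and F at a peak edge. Copy C had no peak in either list. The nearest peak edge was 263 bp away in the control list and 233 bp away in the PDS list, although the core of C has the same bases as those of B and E but for its mismatch. All 50-mers across this core occurred once in the reference, as did all 50-mers of every peak of the domain, so that exact repeats of this length were not found at any of these sites. The length of 50 nt is that of the single-end reads the labels describe, whereas the study's methods describe paired-end libraries, and which of these applies was not settled here. Other lengths and inexact repeats were not examined.

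**Figure D1:**
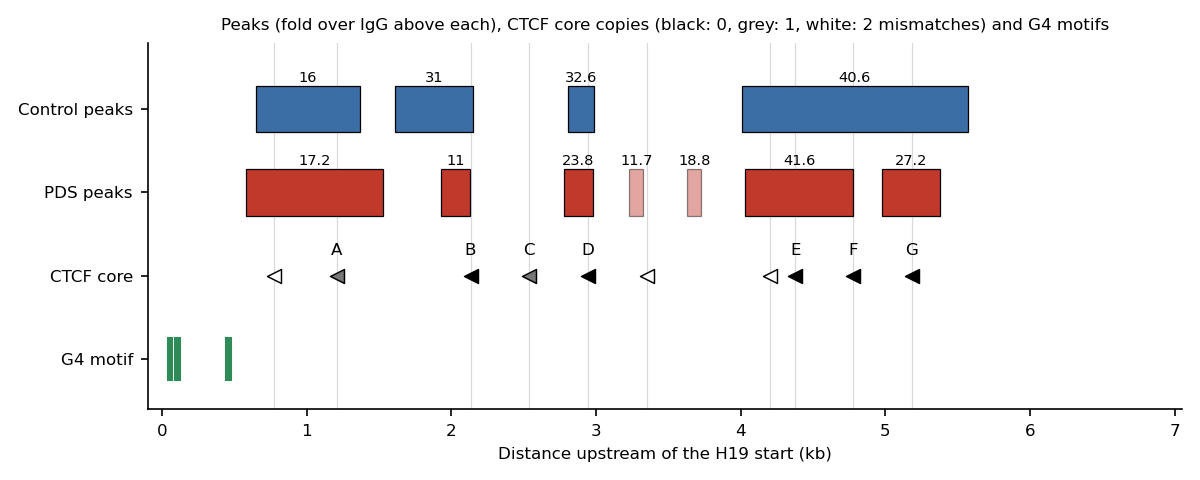
Peaks of the control and the PDS list in the 7 kb upstream of the H19 start, by distance in kb, with the authors' fold over IgG above each peak, the CTCF core copies (A to G have at most 1 mismatch) and the G4 motifs; pale peaks are in the PDS list only. Copy C has no peak in either list, and the 3 G4 motifs, centred at most 456 bp from the H19 start, lie outside all peaks.

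The peak nearest to H19 was centred 1008 bp upstream of its start in control cells (chr11:2019721-2020440, fold 16.0, percentile 19.6) and 1053 bp upstream in PDS-treated cells (chr11:2019651-2020600, fold 17.2, percentile 52.8). It held copy A and, by fold, it was the lowest of the control peaks of the domain. The next peak ended at copy B. It was 540 bp wide in control cells (chr11:2020681-2021220, fold 31.0, percentile 62.6) and 200 bp wide in PDS-treated cells (chr11:2021001-2021200, fold 11, percentile 18.2), where its edge left 3 bases of the core inside the peak. Copy D lay in a narrow peak of both lists, 180 bp in control cells (chr11:2021881-2022060, fold 32.6, percentile 66.2) and 200 bp in PDS-treated cells (chr11:2021851-2022050, fold 23.8, percentile 79.2).

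Copies E, F and G shared a single control peak of 1560 bp, the widest of the domain (chr11:2023081-2024640, fold 40.6, percentile 79.6). The PDS list had 2 peaks in its place. The first, of 750 bp, held E and reached into F (chr11:2023101-2023850, fold 41.6), and its percentile of 97.8 by fold was the highest of any peak of the domain in either list. By p-value its percentile was 74.2, and the highest of the domain was 91.5, at the PDS peak over the MRPL23 start. The second, of 400 bp, held G (chr11:2024051-2024450, fold 27.2, percentile 86.7). They were 200 bp apart and became 1 peak when peaks within 200 bp of each other were merged. The wide control peak thus held all 3 copies whole, and the PDS peaks held E and G whole and 7 bp of the core of F. Control peaks have widths in steps of 60 bp and PDS peaks in steps of 50 bp, so that edges are only known to that step.

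Between copies D and E the PDS list had 2 further peaks of 100 bp, the narrowest width in that list, with no counterpart in control cells. The first was centred 3278 bp upstream of the H19 start, had a fold of 11.7 (percentile 21.0) and ended 15 bp short of the core of the weak copy. The second was centred 3678 bp upstream with a fold of 18.8 (percentile 61.0). By p-value they had percentiles of 39.1 and 25.2. Neither held a core copy, even with 2 mismatches, or a G4 motif. Their sequences on the plus strand are given whole, since they are the only peaks in the 7 kb upstream of H19 found in 1 list.
PDS-only, chr11:2022301-2022400: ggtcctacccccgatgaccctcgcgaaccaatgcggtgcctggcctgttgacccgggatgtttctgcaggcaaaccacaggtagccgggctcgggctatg
PDS-only, chr11:2022701-2022800: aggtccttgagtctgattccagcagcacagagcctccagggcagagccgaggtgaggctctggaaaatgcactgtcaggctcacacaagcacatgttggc
In all, control peaks covered 42.9% and PDS peaks 38.6% of the 7 kb upstream of H19, against 3.04% and 3.63% of the whole domain.

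No peak of either list overlapped H19 downstream of the start used here, which lies in the largest group of annotated 5′ ends, those of 12 transcripts that begin between 2019061 and 2019105. Some other annotated H19 transcripts begin further upstream, the outermost at 2025782, so that each peak named above lies in an intron or an exon of a longer H19 transcript. The H19 promoter region held G4 motifs, taken as at least 3 G in each of 4 runs, with 1 to 7 nt between runs, on the plus or the minus strand. There were 3 in the 7 kb upstream, all close to the start and outside the peaks. Those centred 54 and 456 bp from the start are shown on their G-rich strand with the G runs in capitals, because they lie near the CTCF array.
Promoter G4, chr11:2019113-2019139: GGGcaGGGGcGGGaattctGGGcGGGG
Promoter G4, chr11:2019516-2019541: GGGGtGGGGtgctgaGGGGcagaGGG
The nearest of them was 109 bp from a peak. None of the 4 control and 7 PDS peaks of the array overlapped a G4 motif of this form. With loops of up to 12 nt, 3 of the 4 control peaks and 3 of the 7 PDS peaks did, against 26.9% of all control and 29.3% of all PDS peaks.

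Over the whole domain, G4 motifs overlapped 6 of 15 control peaks (40.0%, Wilson 95% confidence interval 19.8 to 64.3%), against 16.0% of all control peaks, and 7 of 20 PDS peaks (35.0%, interval 18.1 to 56.7%), against 17.1% of all PDS peaks. With an extension of 25 kb in place of 50 kb, the PDS share was 21.4%. The surroundings are rich in such motifs too: in the rest of the first 3 Mb of chromosome 11 the shares were 37% and 32.7%, near those of the domain. Of all 300 bp tiles of chromosome 11, 4.26% held a G4 motif. The CTCF core with at most 1 mismatch lay in 5 of 15 control peaks (33.3%, interval 15.2 to 58.3%), against 1.57% of the list, and in 5 of 20 PDS peaks (25%, interval 11.2 to 46.9%), against 1.52%. A longer CTCF consensus derived from ChIP-exo, a variant of ChIP-seq that trims DNA to the bound site, was not more frequent in the domain. It lay in 13.3% of control and 10.0% of PDS peaks of the domain, against 17.3% and 14.4% of the lists, and these domain shares rest on few peaks. In each list 4 of the 5 peaks with the core were peaks of the array upstream of H19. The array held no match to the ChIP-exo consensus. Outside the domain, 3.0% and 2.65% of the peaks in the first 3 Mb had the core, and 0.0712% of the 300 bp tiles of chromosome 11. Without a mismatch, it was found in 3 peaks of the domain in each list, against 24 control peaks (0.0726%) and 23 PDS peaks (0.0699%) genome-wide. The intervals cover at most counting error, since peaks are not replicates. They treat peaks as independent draws, which the array peaks, with similar core copies side by side, are not.

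**Figure D2:**
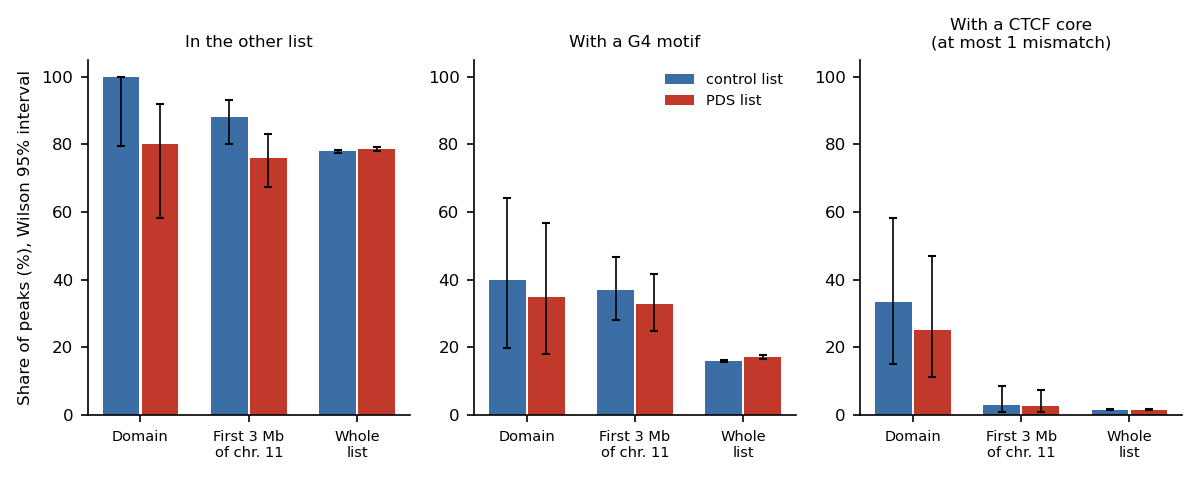
Share of peaks (%) that overlap a peak of the other list, a G4 motif or a CTCF core with at most 1 mismatch, for the domain, the rest of the first 3 Mb of chromosome 11 and each whole list; bars start at 0 and error bars are Wilson 95% intervals. The G4 shares of the domain (40.0% and 35.0%) lie near those of the surrounding 3 Mb, whereas core shares are 33.3% and 25% in the domain and at most 3.0% elsewhere (with the ChIP-exo consensus, not plotted, 13.3% and 10.0% in the domain and 17.3% and 14.4% in the lists).

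Between the array and IGF2, a stretch of 124 kb without annotated protein-coding genes, each list had a peak at the same 2 places. The first was centred 39168 bp upstream of the H19 start in control cells, at chr11:2057941-2058540 (fold 27.5, percentile 52.9) and in PDS-treated cells at chr11:2057951-2058500 (fold 24.8, percentile 81.8). It held 2 G4 motifs on opposite strands, next to each other. The second was centred 76608 bp upstream, at chr11:2095501-2095860 in control cells (fold 29.7, percentile 59.3) and chr11:2095501-2095850 in PDS-treated cells (fold 34, percentile 94.5). Its percentile by fold was the second highest of the PDS peaks of the domain, whereas by p-value it was 60.5. This peak had no copy of the 14 bp core. It had a match to the ChIP-exo consensus, and a G4 motif lay beside that match. The motifs are shown as above, with the consensus match (to which the coordinates refer, 10 bases being added on either side) or the G runs in capitals.
G4 at 39.17 kb, plus strand, chr11:2058194-2058215: GGGtggcGGGaGGGGGctGGGG
G4 at 39.17 kb, minus strand, chr11:2058222-2058248: GGGGctcctaGGGGGGGtgcaggtGGG
CTCF consensus at 76.61 kb, minus strand, chr11:2095682-2095696: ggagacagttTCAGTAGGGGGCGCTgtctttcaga
G4 at 76.61 kb, minus strand, chr11:2095721-2095742: GGGctGGGtGGGGGGacgcGGG
A further PDS-only peak of 100 bp lay 200 bp from the second place (chr11:2095201-2095300, fold 16.0, percentile 45.7). By p-value its percentile was 4.45, the lowest of the domain, and merging peaks within 200 bp joined it to its neighbour. Of the 6 matches to the ChIP-exo consensus in the domain, 2 lay in peaks, and both of these were in peaks of both lists. The share of such matches in peaks over the genome was not computed, so this count was not compared with one.

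In IGF2, each list had a wide peak in an intron, in control cells of 1320 bp and centred 154068 bp from the H19 start (chr11:2172481-2173800, fold 24.9, percentile 44.7) and of 1300 bp in PDS-treated cells (chr11:2172451-2173750, fold 20.8, percentile 69.5). It ranked high by p-value in both lists, with percentiles of 87.1 and 88.9, and had neither a G4 motif nor a core copy with at most 1 mismatch. A narrower peak lay 1746 bp from the nearest annotated IGF2 start in control and 1766 bp in PDS-treated cells, also in an intron. Its fold of 46.3 in control cells (chr11:2177641-2178000, percentile 85.4) was the second highest of the control peaks of the domain. In PDS-treated cells the fold was 9.34 (chr11:2177551-2178050, percentile 11.6). By p-value the order was the other way round, with percentiles of 56.9 in control and 81.2 in PDS-treated cells. This peak held 2 G4 motifs, shown on the minus strand, on which IGF2 is transcribed.
IGF2 intron G4, chr11:2177652-2177684: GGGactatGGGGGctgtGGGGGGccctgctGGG
IGF2 intron G4, chr11:2177735-2177767: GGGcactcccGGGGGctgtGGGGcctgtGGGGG
The fourth PDS-only peak of the domain was also in an IGF2 intron, 300 bp wide (chr11:2171701-2172000, fold 8.82, percentile 9.80), and had no G4 motif and no core copy. It was 480 bp from the nearest control peak. All of these IGF2 peaks also lay in an intron of INS-IGF2, an annotated protein-coding gene that overlaps both IGF2 and INS. INS itself had no peak in either list. A copy of the core with 1 mismatch in an INS coding exon, chr11:2182027-2182040, lay outside all peaks, as did 2 copies with 1 mismatch between the array and IGF2.

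Beyond INS, both lists had a peak over a TH exon (chr11:2187481-2187660 in control and chr11:2187451-2187850 in PDS-treated cells). Its fold of 8.01 in the PDS list, percentile 6.90, was the lowest of the domain, and the control fold was 22.3, percentile 35.3. Ordered by p-value, the percentile was higher in the PDS list, 75.5 against 59.2 in the control list. Farther out, 197.33 and 199.64 kb from the H19 start, 2 intergenic peaks were present in both lists. The outer one (chr11:2218441-2218980 in control and chr11:2218401-2219000 in PDS-treated cells) had the highest control fold of the domain, 50.3 at percentile 88.5, and a PDS fold of 22.8 at percentile 76.2. It held 2 G4 motifs in each list. The inner one was 600 bp wide in control cells (chr11:2216101-2216700, fold 32.6, percentile 66.3) with 1 motif and 1100 bp wide in PDS-treated cells (chr11:2215601-2216700, fold 20.6, percentile 68.5) with 2 motifs, the second lying in the part that only the PDS peak covered.
Outer peak G4, plus strand, chr11:2218721-2218746: GGGGagctGGGGtGGGactcaGGGGG
Outer peak G4, plus strand, chr11:2218848-2218870: GGGGcaGGGGaaGGGtggcGGGG
Inner peak G4, in the PDS part alone, plus strand, chr11:2215691-2215709: GGGGacaGGGaGGGaGGGG

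On the far side of H19, where MRPL23 lies, each list had 4 peaks, all in both lists. The outermost covered the MRPL23 start (chr11:1968361-1968720, fold 45.7, percentile 85.0 in control and chr11:1968301-1968750, fold 23.3, percentile 77.8 in PDS-treated cells). It was the most G4-rich peak of the domain, with 4 motifs in the control and 5 in the PDS peak, had a GC content of 79.7% and 79.6%, and held a core copy with 1 mismatch. Within MRPL23, a peak at chr11:1974781-1975140 in control cells (fold 42.1, percentile 81.4) and chr11:1974551-1975300 in PDS-treated cells (fold 18.0, percentile 57.1) held the other ChIP-exo consensus match that lay in a peak:
CTCF consensus in MRPL23, plus strand, chr11:1974936-1974950: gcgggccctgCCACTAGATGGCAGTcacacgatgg
The peak of MRPL23 nearest to H19, in an intron and with a G4 motif at the edge of the PDS peak alone, went from percentile 80.5 in control cells (chr11:1990381-1990620, fold 41.2) to 11.4 in PDS-treated cells (chr11:1990401-1990650, fold 9.28). By p-value it went from 23.8 to 64.7. The last peak of this side, chr11:1970401-1970580 in control and chr11:1970251-1970550 in PDS-treated cells, had percentiles of 26.2 and 30.1 by fold and no motif of either kind.

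**Figure D3:**
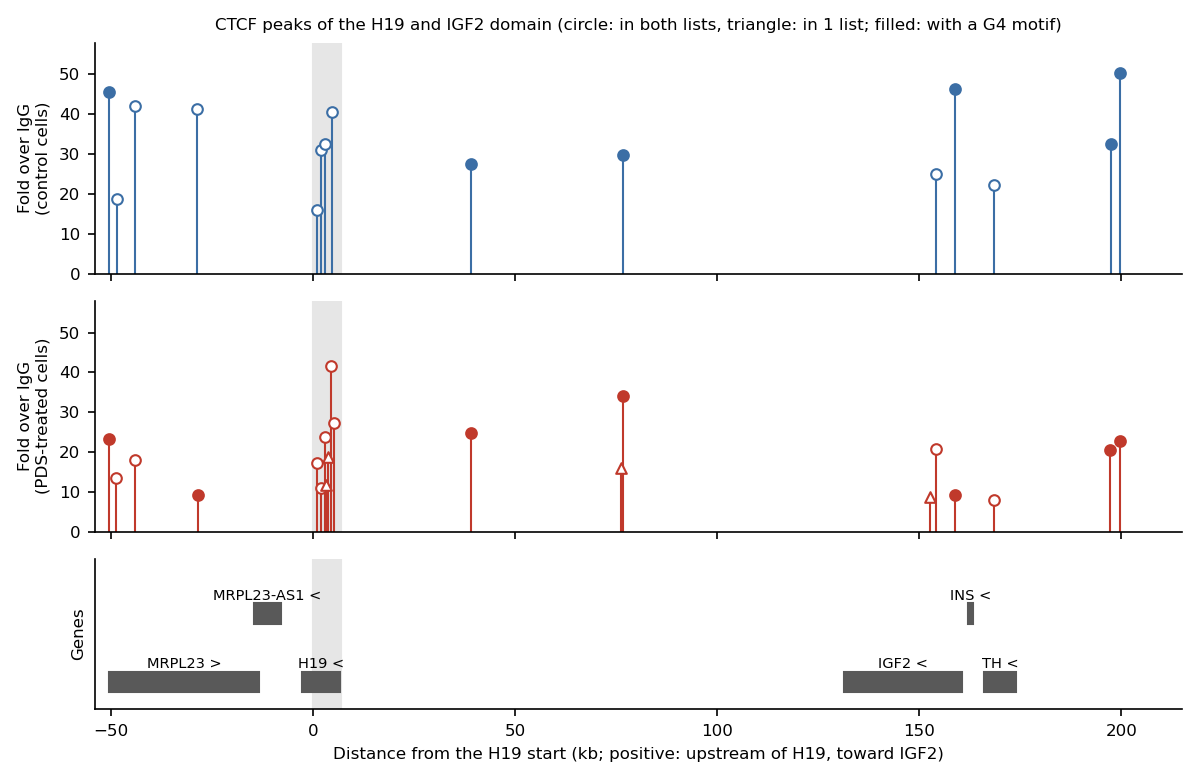
Fold over IgG of the CTCF peaks of the domain in control (top) and PDS-treated cells (middle), by distance from the H19 start in kb, above H19 and its neighbours (arrowheads give the strand; some genes are left out); grey marks the 7 kb upstream of H19. Filled symbols have a G4 motif and triangles lack a peak in the other list; the peaks crowd in the grey zone, where no symbol is filled.

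Most places had a peak in both lists. All 15 control peaks of the domain overlapped a PDS peak by at least 1 bp (100%, Wilson 95% confidence interval 79.6 to 100%), against 78.0% of all control peaks, and 16 of the 20 PDS peaks overlapped a control peak (80.0%, interval 58.4 to 91.9%), against 78.6% of all PDS peaks. The share of PDS peaks without a counterpart, 4 of 20, was thus close to the 21.4% of the whole list. None of the 15 control peaks lacked a counterpart, against 22.0% of the control list. In the rest of the first 3 Mb of chromosome 11, 88.0% of control and 76.1% of PDS peaks were shared. The 4 peaks found in the PDS list alone were narrow, with a median of 100 bp, which was also the median of all such peaks of the list, against 475 bp for the 16 others. When peaks within 200 bp were merged in both lists, 15 of 15 and 15 of 18 were shared.

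With the extension of 50 kb, the domain had 56.4 control and 75.2 PDS peaks per Mb. This density depended on the extension and on how peaks were split. The domain held 9 control and 14 PDS peaks with 25 kb, and 15 and 21 with 100 kb, for which peaks per Mb were not computed. Merging peaks within 200 bp left 18 PDS peaks. The rest of the first 3 Mb of chromosome 11 had 36.6 and 41.3 per Mb, the whole chromosome 13.9 and 14.5, and the genome 10.7 and 10.6. Peak widths were near those of the lists, with medians of 360 bp in the domain and 360 bp overall for control cells, and of 400 and 300 bp for PDS-treated cells. Median percentiles by fold were 66.2 for the 15 control peaks and 59.1 for the 20 PDS peaks. Peaks with a G4 motif had medians of 75.6 (6 control peaks) and 76.2 (7 PDS peaks), and peaks without one 62.6 (9 control peaks) and 52.8 (13 PDS peaks). By p-value the medians were 81.9 with and 59.2 without a motif for control peaks, and 82.3 and 57.3 for PDS peaks. Control peaks with a motif spanned percentiles by fold from 52.9 to 88.5 and those without one from 19.6 to 81.4, and by p-value from 43.3 to 89.0 and from 23.8 to 87.1. PDS peaks with a motif spanned percentiles by fold from 11.4 to 94.5 and those without one from 6.90 to 97.8, and by p-value from 60.5 to 91.5 and from 4.45 to 88.9. The ranges overlapped in each list and by each order.

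At the 14 places with 1 peak in each list, the percentile by fold was higher in the PDS list at 7 and lower at 7. The differences ranged from -73.8 points at the IGF2 intron peak nearest to the gene start to 35.2 points at the peak 76.61 kb upstream of H19. Ordered by p-value, the PDS percentile was higher at 12 of the 14 and lower at 2, and at 9 of the 14 the 2 orders gave opposite directions. The single peak of copy A, for example, went from 19.6 to 52.8 by fold and from 82.0 to 58.3 by p-value. No direction of change in CTCF occupancy was therefore read from these ranks. The lists, 1 per condition and called on both replicates together, allow no test between the conditions.

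**Figure D4:**
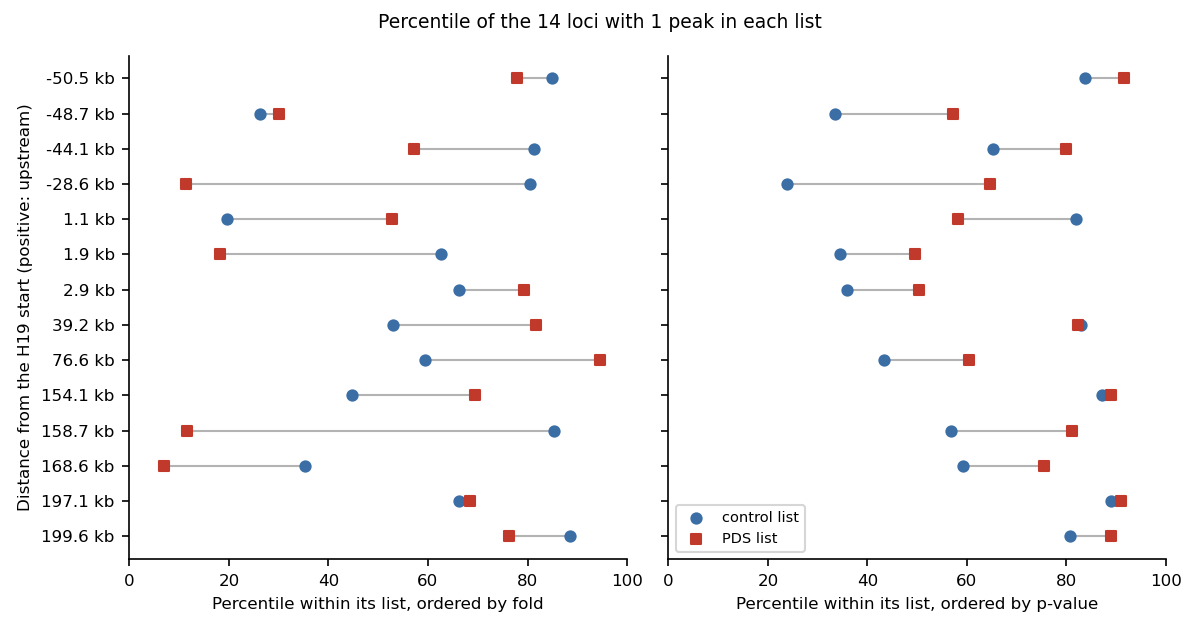
Percentile of each of the 14 places with 1 peak in each list, ordered by the authors' fold (left) and p-value (right), with places named by their distance from the H19 start in kb (positive: upstream). Blue circles are control and red squares PDS peaks; by fold the PDS square lies to the right at 7 places and to the left at 7, and by p-value to the right at 12.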

How the data were processed

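CTCF ChIP-seq peaks of control and PDS-treated K562 cells were used as deposited. Per the submitters' processing notes and the study's methods, reads were mapped to hg19 with Bowtie2 2.2.3, filtered with SAMtools for unique reads, duplicates and mapping quality, and peaks were called with PePr on both replicates over IgG. The authors computed the fold enrichment over IgG, a ratio, and the p-value of each peak, which were used to order peaks. The deposited score is proportional to the fold and, like the adjusted p-value that the authors gave, was not used. Read counts are not in the lists, so depth is unknown.

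Sequence and genes were taken from GRCh37 and GENCODE release 44 mapped to it, and 24 peaks of each list, on sequences not matched by name, were left out of motif shares. Annotated 5′ ends of H19 were grouped where neighbours lay at most 100 bp apart, and the most frequent end of the largest group was the H19 start. Peaks in H19 and the 7 kb upstream of it, in IGF2 or INS, among the 3 highest by fold, found in 1 list or with a G4 motif were described in full, and other genes were named where a peak overlapped them. The members and lists were chosen with earlier results of these data known. On simulated data, the motif search recovered all 200 planted core and 200 planted G4 motifs, and 50-mer counting recovered all 251 repeated 50-mers of a direct copy and 251 of an inverted copy. Alternatives covered the extension, overlap, merging, stringency, motif and zone. Sequences are printed for a selection of motifs, and 1 item is not reported here. Intervals are Wilson 95% intervals (Python 3.11.15, numpy 2.4.6, pandas 2.3.3, scipy 1.17.1, numba 0.67.0, pyfaidx 0.9.0.4, matplotlib 3.10.9, samtools 1.23.1).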

Additional observations from a re-analysis of the deposited data

How the results depend on the processing

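Of 52 alternatives to 14 results, 40 stayed within 1.5 times the reported count or inside the reported value's 95% interval, and 12 did not. None of these values carries a test. The intervals are wide, and shares inside them still moved by over 1.5 times: the core share was 20% of control and 15% of PDS peaks without a mismatch, 53.3% and 45% with at most 2 mismatches (14.6% and 13.9% of the lists), and 20% of control peaks in the central 200 bp, and the PDS G4 share was 21.4% with an extension of 25 kb and 55% in 1000 bp windows (29.9% of the PDS list). With an extension of 25 kb the domain held 9 control peaks. The shares of shared peaks depended on the overlap asked for: with at least 50% of both peaks they were 73.3% for control and 55.0% for PDS (65.2% and 65.6% for the whole lists), and with gaps of up to 1 kb the PDS share was 100% (91.5% of the list). G4 shares rose with looser motifs, to 86.7% and 65.0% with loops of up to 12 nt and to 100% and 90.0% with runs of 2 or more G, as did those of the lists (26.9% and 29.3%, 77.0% and 82.8%). With the ChIP-exo consensus in place of the core, 13.3% of the control and 10.0% of the PDS peaks of the domain held a motif, against 17.3% and 14.4% of the lists. Counted from the outermost 5′ end of H19, 0 control and 0 PDS peaks lay upstream, since the array lies inside the longest transcript. Merging peaks within 200 bp left 3 PDS-only peaks; its use on shared peaks was chosen after seeing the data. No paired analysis was possible because the peaks of both replicates were called together. For the same reason no replicate could be left out, and depth, which is not given in the lists, could not be weighed.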

Other observations

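G4 motifs were unevenly spread over the domain. It held 348 of them, 1.31 per kb, against 0.149 per kb on chromosome 11. Of the 348, 15 overlapped a peak of either list, where control peaks covered 3.04% and PDS peaks 3.63% of the domain. The share of motifs in peaks over the whole chromosome was not computed. The 50 kb on the MRPL23 side of H19 had 1.96 motifs per kb, the 50 kb beyond INS 1.8, and IGF2 1.47. The 7 kb upstream of H19 had 0.429 per kb, the lowest density among the zones of the domain, although it held 7 of the 12 core copies with at most 1 mismatch. Its GC content was 57.3%, against 57.4% for the domain.

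The 5 core copies outside the array all had 1 mismatch. A single one, at the MRPL23 start, lay in a peak of both lists, and 3 of the 5 were on the plus strand, whereas all 7 copies of the array were on the minus strand. The share of copies with 1 mismatch in peaks over the genome was not computed.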
